A study of Mus musculus with 6 samples.

Results

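The genes described here are 10 members of the gene network of the epithelial-mesenchymal transition (EMT): the transcription factors *Snai1*, *Snai2*, *Twist1*, *Twist2*, *Zeb1* and *Zeb2*, the classical cadherins *Cdh1*, *Cdh2* and *Cdh3*, and the intermediate filament gene *Vim*. They were chosen by name, for their roles in EMT and cell adhesion, out of 56748 genes in the deposited tables. All 10 were found by gene identifier and all 10 were among the 16605 genes with enough reads to be tested. The lowest count of any of them in any uterus was 39, for *Twist1* in *Gp130* ecKO 1. RNA-seq was performed on 3 control and 3 *Gp130* ecKO uterus samples at 1600 h on day 4 of pregnancy, shortly before the embryo attaches. *Gp130* (*Il6st*) encodes the signal transducing receptor subunit shared by leukemia inhibitory factor (LIF) and other cytokines of the interleukin 6 family. The *Gp130* ecKO females were Ltf iCre/+; Gp130 flox/flox. Expression of iCre from the *Ltf* gene is known in the mature uterine epithelium and also in some myeloid cells such as neutrophils. The controls are labelled WT, and the study's methods describe controls as either Ltf +/+; Gp130 flox/flox or wildtype, so that a control may or may not carry the floxed allele. Females of both groups were on a C57BL/6 background by the labels (C57BL/6J in the study's methods), over 8 weeks old and mated with fertile wildtype males. Each library was made from uterine RNA holding epithelium, stroma, muscle, vessels and leukocytes. Fewer cells of a type and less RNA per cell therefore cannot be told apart in these values.

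In EMT, epithelial cells loosen their junctions and take on features of mesenchymal cells. Factors of the Snail, Twist and ZEB families drive it by repressing epithelial genes, first of all *Cdh1*, which encodes E-cadherin, the calcium-dependent adhesion protein of epithelial junctions. Snail and ZEB proteins are zinc finger repressors that bind short E-box sequences, and Twist proteins are basic helix-loop-helix factors that bind E-boxes as dimers. *Cdh2* (N-cadherin) and *Vim* (vimentin) are the usual mesenchymal counterparts, and *Cdh3* (P-cadherin) is a second epithelial cadherin. In the uterus the stroma itself is mesenchymal and expresses most of these genes, whereas the luminal epithelium loses part of its polarity and adhesion when it becomes receptive to the embryo. The study examined the protein of SNAI1, KRT8 and CDH1 in this model, and also analysed the RNA of the libraries used here. The comparison here gives the RNA of *Snai1*, *Cdh1* and their families in the same groups.

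Promoter sequences are shown for *Snai1* and for the keratin pair *Krt8* and *Krt18*, which encode filament partners of simple epithelium and serve as examples of epithelial genes that are repressed in EMT. Each is the 250 bases before the RefSeq start on the GRCm38.p6 build, 5′ to 3′ on the strand of the gene, and capitals mark the E-box CACCTG, whose reverse complement is CAGGTG and to which Snail and ZEB proteins bind. The *Snai1* window is chr2:167537945-167538194 on the plus strand, the *Krt8* window chr15:102004343-102004592 on the minus strand and the *Krt18* window chr15:102027966-102028215 on the plus strand.
Snai1: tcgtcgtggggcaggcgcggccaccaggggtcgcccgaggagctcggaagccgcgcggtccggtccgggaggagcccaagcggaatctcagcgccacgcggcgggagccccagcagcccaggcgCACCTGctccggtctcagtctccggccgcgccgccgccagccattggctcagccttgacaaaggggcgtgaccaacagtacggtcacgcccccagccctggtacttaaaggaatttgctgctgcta
Krt8: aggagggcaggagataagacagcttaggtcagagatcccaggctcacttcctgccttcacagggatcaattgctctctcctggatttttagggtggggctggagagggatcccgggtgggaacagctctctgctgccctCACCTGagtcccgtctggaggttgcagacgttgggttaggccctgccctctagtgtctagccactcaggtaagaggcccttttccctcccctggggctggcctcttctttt
Krt18: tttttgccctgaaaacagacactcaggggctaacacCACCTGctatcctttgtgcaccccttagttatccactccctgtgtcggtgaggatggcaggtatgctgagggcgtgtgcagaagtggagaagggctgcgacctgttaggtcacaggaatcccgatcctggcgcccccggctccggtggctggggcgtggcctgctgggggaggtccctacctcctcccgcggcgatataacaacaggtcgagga
The first base of CACCTG lay 126 bases upstream of the start in *Snai1*, 111 in *Krt8* and 214 in *Krt18*. CACCTG or CAGGTG, searched on both strands, occurred in 17.2% of 32851 RefSeq windows of the same length. Promoter entries were matched for 5 of the 10 members, with 8 windows in all, and the E-box occurred in those of *Snai1* and of no other matched member. *Snai2*, *Zeb1*, *Cdh1*, *Cdh2* and *Cdh3* were not matched. Of 12 epithelial genes repressed in EMT, 11 were matched, with 14 windows in all, and 8 held the E-box in at least 1 window: *Cldn4*, *Cldn7*, *Crb3*, *Epcam*, *Krt18*, *Krt8*, *Muc1* and *Ocln*. This is a count of genes, whereas the 17.2% is a share of windows. The spaced palindrome TTCNNNGAA, which STAT proteins bind, occurred in 7.02% of the 32851 windows and, among the matched members, only in *Zeb2*, as TTCTGTGAA at 147 bases upstream of 1 of its starts. The same bases lie 173 upstream of a neighbouring start. A match of these letters is a description of the window and not evidence of binding, and the absence of a match says only that the letters are not in the window.

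Expected counts summed to between 13960748 and 25906443 per uterus, with the lowest sum in control 3. Values are given as CPM, the count of a gene as a share of the library size, which edgeR scaled by the TMM method, and differences as the log2 fold change of *Gp130* ecKO over control. *Il6st* stood at 631, 678 and 452 CPM in controls 1, 2 and 3 and at 388, 349.8 and 362 CPM in *Gp130* ecKO uteri 1, 2 and 3. All 3 *Gp130* ecKO uteri lay below the controls, with a log2 fold change of −0.68 (SE 0.21, adjusted p = 0.120, edgeR quasi-likelihood test). Control 2 lay at 0.03 on the first dimension of a multidimensional scaling, between the other controls at 2.09 and 2.08 and the *Gp130* ecKO uteri at −1.47 to −1.32.

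Of the 10 genes, 9 had a lower mean and *Cdh1* a higher mean in *Gp130* ecKO uteri. The median log2 fold change of the 10 was −1.06, against −0.05 over all 16605 tested genes. A gene was called at an adjusted p (Benjamini-Hochberg over all tested genes, FDR) below 0.05 and more than 2-fold change. The quasi-likelihood test of edgeR called 0 of the 10, beside 0.157% of all tested genes. An unadjusted p below 0.05 was found for 8 of the 10, 1 higher and 7 lower, beside 25.0% of all tested genes (12.1% higher and 12.9% lower). The other tests placed more of them past an FDR of 0.05. DESeq2 placed 7 there (1 higher, 6 lower) beside 13.3% of all genes (6.73% higher, 6.59% lower), the exact test of edgeR placed 5 lower beside 8.90% (4.34% lower), and its likelihood ratio test placed 6 lower beside 9.50% (4.69% lower). With more than 2-fold change as well, DESeq2 called 6 beside 9.29% of all genes, the exact test 5 beside 7.46% and the likelihood ratio test 6 beside 7.93%, and the quasi-likelihood test at FDR under 0.10 called 3 beside 5.15%. The groups did not overlap for 7 of the 10 by CPM, 1 higher and 6 lower, beside 31.3% of all tested genes (15.7% higher and 15.6% lower). By deposited TPM, which is scaled for transcript length as well as depth, 5 of the 10 did not overlap, beside 28.7% of all tested genes. Without control 2 the quasi-likelihood test called 2 of the 10, *Snai2* and *Twist1*, and the calls over all genes went from 26 to 892. For each of the 7 genes without overlap an exact two-sided permutation test over the 3 and 3 uteri gave p = 0.1, the smallest that this design can give. The p-values measure the spread between these uteri, and the labels do not say whether each library is a separate female.

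**Figure D1:**
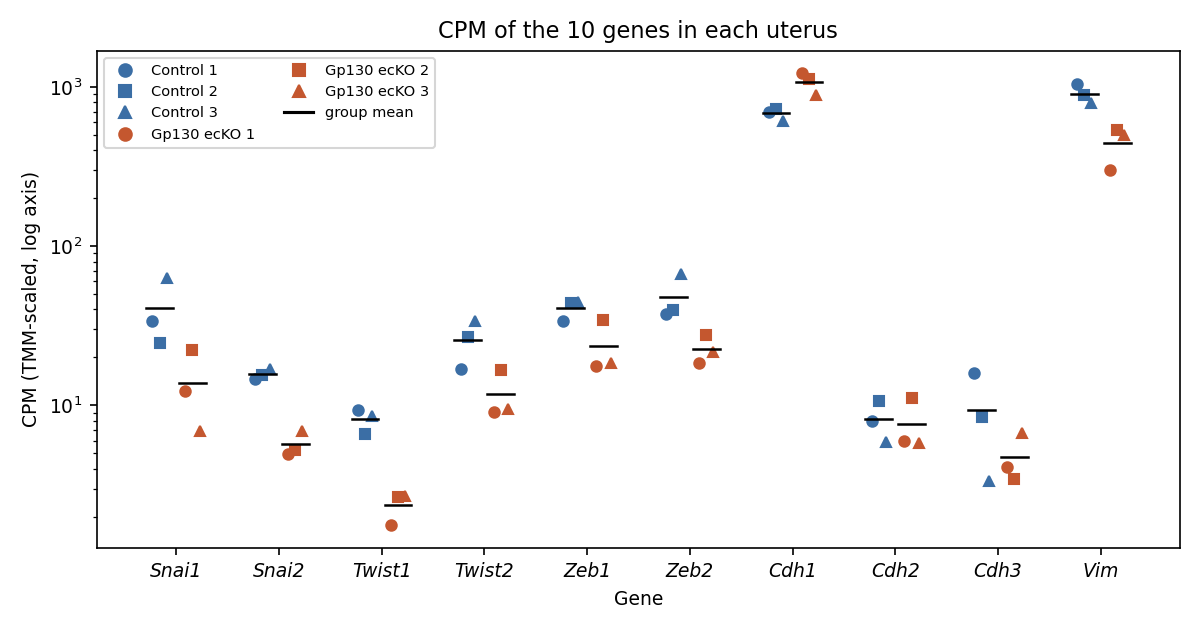
CPM (TMM-scaled, logarithmic axis) of the 10 genes in each of the 3 control (blue) and 3 Gp130 ecKO (orange) uteri, with symbols for the uterus number and black lines for group means. The Gp130 ecKO uteri lie below every control for Snai1, Snai2, Twist1, Twist2, Zeb2 and Vim, above every control for Cdh1, and overlap with the controls for Cdh2, Cdh3 and, through Gp130 ecKO 2 alone, Zeb1.

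**Figure D2:**
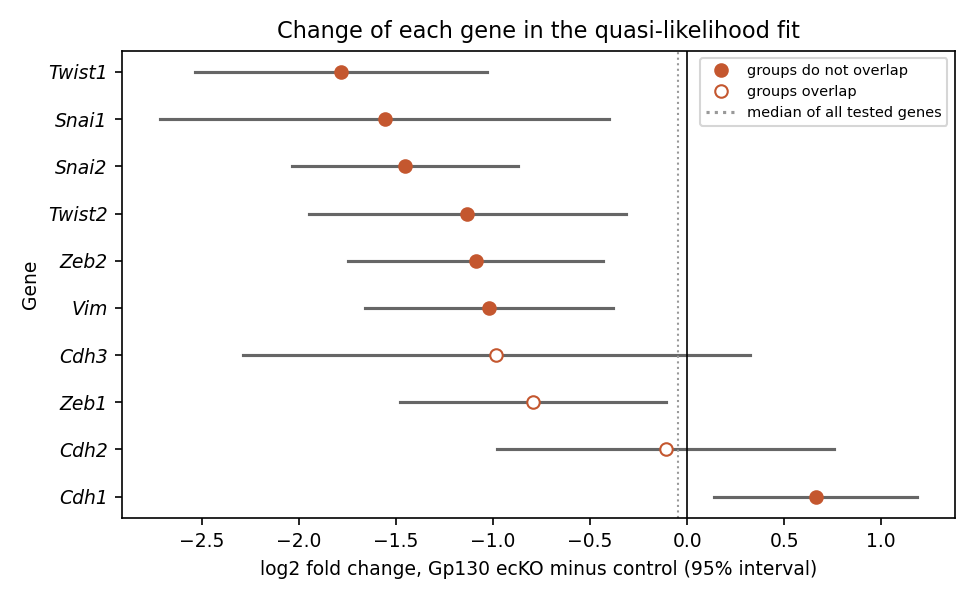
Log2 fold change of Gp130 ecKO over control for each gene from edgeR's quasi-likelihood fit, with 95% confidence intervals as lines, filled points where the groups do not overlap and a dotted line at the median of all tested genes. Twist1 has the lowest value at −1.78 and Cdh1 the highest at 0.66, and the intervals of Cdh2 and Cdh3 include 0.

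*Snai1* (ENSMUSG00000042821, chromosome 2, 167380113 to 167384734 on the plus strand of GRCm39) encodes the zinc finger repressor SNAIL. It stood at 33.8, 24.6 and 63.5 CPM in controls 1, 2 and 3 and at 12.25, 22.1 and 6.92 CPM in *Gp130* ecKO uteri 1, 2 and 3. Control 3 was the highest and *Gp130* ecKO 3 the lowest, and control 2 was separated from *Gp130* ecKO 2 by only 24.6 against 22.1 CPM. The mean was 40.65 ± 20.4 CPM in the control and 13.8 ± 7.71 CPM in the *Gp130* ecKO uteri (SD, n = 3 each). This 2.95-fold lower level corresponds to a log2 fold change of −1.56 (SE 0.49, 95% confidence interval −2.72 to −0.40), with an unadjusted p of 0.0150 and an adjusted p of 0.124 in edgeR's quasi-likelihood test. The adjusted p was 0.0247 with DESeq2 and 0.0396 with edgeR's exact test, and ranged from 0.0247 to 0.318 over 17 alternatives. With 1 uterus left out at a time the log2 fold change stayed between −2.08, without *Gp130* ecKO 2, and −1.09, without control 3. By TPM the groups overlapped, with 20.65 in control 2 and 21.6 in *Gp130* ecKO 2.

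*Snai2* (ENSMUSG00000022676, chromosome 16, 14523425 to 14527252, plus strand) encodes SLUG, the closest relative of SNAIL. It was at 14.6, 15.5 and 17 CPM in controls 1, 2 and 3 and at 4.97, 5.27 and 6.92 CPM in *Gp130* ecKO uteri 1, 2 and 3. The uteri of each group were close together and the groups far apart, so that its confidence interval was the narrowest among the 6 transcription factors. *Snai2* was 2.74-fold lower, with a log2 fold change of −1.45 (SE 0.25, 95% confidence interval −2.04 to −0.87) and an adjusted p of 0.0622 in edgeR's quasi-likelihood test. DESeq2 gave an adjusted p of 3.22e-06 and edgeR's exact test 0.00136. The log2 ratio of *Snai1* to *Snai2* was 1.19, 0.65 and 1.87 in the controls and 1.22, 1.97 and 0.00 in *Gp130* ecKO, values that overlapped (exact permutation p = 1.0, n = 3 each).

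*Twist1* (ENSMUSG00000035799, chromosome 12, 34007645 to 34009828, plus strand), a basic helix-loop-helix factor of mesenchyme, was at 9.35, 6.63 and 8.60 CPM in controls 1, 2 and 3. *Gp130* ecKO uteri 1, 2 and 3 were at 1.76, 2.65 and 2.69 CPM. The groups did not overlap and each *Gp130* ecKO uterus was below 3 CPM. The 3.44-fold lower level was the largest difference among the 10 genes, with a log2 fold change of −1.78 (SE 0.32, 95% confidence interval −2.54 to −1.03) and an adjusted p of 0.0636 in edgeR's quasi-likelihood test. DESeq2 gave 1.93e-05 and the exact test of edgeR 0.00157 as adjusted p.

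*Twist2* (ENSMUSG00000007805, chromosome 1, 91729176 to 91796542, plus strand), its paralog, was at 16.99, 26.9 and 33.8 CPM in controls 1, 2 and 3 and at 9.13, 16.7 and 9.49 CPM in *Gp130* ecKO uteri 1, 2 and 3. Control 1 and *Gp130* ecKO 2, at 16.99 and 16.7 CPM, came within a small distance of each other. The log2 fold change was −1.13 (SE 0.35), with an adjusted p of 0.119 in edgeR's quasi-likelihood test, 0.0321 with DESeq2 and 0.0519 with edgeR's exact test. By TPM the groups overlapped, with 16.7 in control 1 and 20.0 in *Gp130* ecKO 2. *Gm29100*, which lies on the opposite strand over the start of *Twist2*, had 9 to 23 counts per uterus.

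*Zeb1* (ENSMUSG00000024238, chromosome 18, 5591851 to 5775467, plus strand), a zinc finger and homeodomain repressor of *Cdh1*, was at 33.7, 43.8 and 44.7 CPM in controls 1, 2 and 3 and at 17.7, 34.2 and 18.6 CPM in *Gp130* ecKO uteri 1, 2 and 3. *Gp130* ecKO 2 lay above control 1, and the groups overlapped. A log2 fold change of −0.79 (SE 0.29, 95% confidence interval −1.48 to −0.11) had an unadjusted p of 0.0285 and an adjusted p of 0.158 in edgeR's quasi-likelihood test. Over the 17 alternatives its adjusted p was never below 0.0997, the value of DESeq2. *Zeb1os1*, on the opposite strand and overlapping the *Zeb1* start, had 21, 34 and 24 counts in the controls and 11, 12 and 10 in *Gp130* ecKO, beside at least 391 counts of *Zeb1* in each uterus.

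*Zeb2* (ENSMUSG00000026872, chromosome 2, 44873644 to 45007464, minus strand), the second ZEB repressor, was at 37.6, 39.8 and 66.8 CPM in controls 1, 2 and 3 and at 18.45, 27.7 and 21.5 CPM in *Gp130* ecKO uteri 1, 2 and 3. The groups did not overlap, and control 3 was the highest as it was for *Snai1*. *Zeb2* was 2.13-fold lower, with a log2 fold change of −1.09 (SE 0.28) and an adjusted p of 0.0953 in edgeR's quasi-likelihood test, 0.0127 with DESeq2 and 0.0184 with edgeR's exact test. The antisense gene *Zeb2os* had 87, 75 and 37 counts in the controls and 20, 52 and 63 in *Gp130* ecKO, beside at least 408 counts of *Zeb2* per uterus. Whether strand was used in counting is not given in the sources used here, so reads of *Zeb2* and of this partner may not have been told apart.

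*Cdh1* (ENSMUSG00000000303, chromosome 8, 107329941 to 107396880, plus strand), the E-cadherin gene, was at 699, 733 and 615 CPM in controls 1, 2 and 3. It was at 1219, 1131 and 887 CPM in *Gp130* ecKO uteri 1, 2 and 3. All 3 *Gp130* ecKO uteri lay above the controls, in the direction opposite to that of the transcription factors. The level was 1.58-fold higher, with means of 682 ± 60.4 CPM in the control and 1079 ± 171.8 CPM in the *Gp130* ecKO uteri (SD, n = 3 each). The log2 fold change was 0.66 (SE 0.22, 95% confidence interval 0.14 to 1.18), with an unadjusted p of 0.0197 and an adjusted p of 0.136 in edgeR's quasi-likelihood test. DESeq2 gave an adjusted p of 0.0158, edgeR's exact test 0.113 and its likelihood ratio test 0.108. Leaving out 1 uterus at a time kept the log2 fold change between 0.57 and 0.81.

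*Cdh2* (ENSMUSG00000024304, chromosome 18, 16700793 to 16942381, minus strand), the N-cadherin gene, was at 8.01, 10.6 and 5.87 CPM in controls 1, 2 and 3 and at 5.92, 11.04 and 5.76 CPM in *Gp130* ecKO uteri 1, 2 and 3. The uteri of both groups covered nearly the same range. Its log2 fold change was −0.11 with a 95% confidence interval of −0.98 to 0.76 (adjusted p = 0.870, edgeR quasi-likelihood test), so that a difference of the size of *Twist1* lay outside the interval and 1 of the size of *Zeb1* inside it. The sign turned when control 2, *Gp130* ecKO 1 or *Gp130* ecKO 3 was left out, to at most 0.15.

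*Cdh3* (ENSMUSG00000061048, chromosome 8, 107237456 to 107283929, plus strand), the P-cadherin gene, lies before *Cdh1* on the same strand with 46011 bases and 2 other annotated genes between them. It was at 16.1, 8.45 and 3.33 CPM in controls 1, 2 and 3 and at 4.07, 3.46 and 6.67 CPM in *Gp130* ecKO uteri 1, 2 and 3. Relative to their mean the controls spread more widely than for *Cdh1* or *Cdh2*, and control 3 was below all *Gp130* ecKO uteri. The log2 fold change was −0.98 (95% confidence interval −2.29 to 0.32, adjusted p = 0.307, edgeR quasi-likelihood test), and −0.32 without control 1. *Cdh3* and *Cdh1* thus had log2 fold changes of opposite sign. The log2 ratio of *Cdh1* to *Cdh3* was higher by 1.36 in *Gp130* ecKO with overlapping groups (exact permutation p = 0.2, n = 3 each), and by 0.88 without control 1.

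*Vim* (ENSMUSG00000026728, chromosome 2, 13578738 to 13587639, plus strand), the vimentin gene of mesenchymal cells, was at 1041, 885 and 788 CPM in controls 1, 2 and 3 and at 299, 534.5 and 502 CPM in *Gp130* ecKO uteri 1, 2 and 3. The groups did not overlap, and *Gp130* ecKO 1 was the lowest. *Vim* was 2.03-fold lower, with a log2 fold change of −1.02 (SE 0.27, 95% confidence interval −1.66 to −0.38) and an adjusted p of 0.101 in edgeR's quasi-likelihood test, 0.00959 with DESeq2 and 0.0281 with edgeR's exact test. The log2 ratio of *Cdh1* to *Vim* within each uterus was −0.57, −0.27 and −0.36 in the controls and 2.02, 1.08 and 0.82 in *Gp130* ecKO. Per transcript length, *Vim* stayed above *Cdh1* in *Gp130* ecKO 2 and 3, at 489.9 against 391.7 TPM and 351.4 against 252.1 TPM, and was below it in *Gp130* ecKO 1, at 241.6 against 388.8 TPM. The log2 ratio by CPM was higher by 1.71 (exact permutation p = 0.1, n = 3 each). The ratio of *Cdh1* to *Snai1* was higher by 2.22 and that of *Cdh1* to *Cdh2* by 0.78, each without overlap and each at the same smallest p of the exact permutation test. By CPM *Cdh1* was above, and *Vim* and *Snai1* were below, every control in each *Gp130* ecKO uterus. The ratios of *Cdh1* to *Vim* and to *Snai1* therefore had to separate, and their p adds nothing to the values of the single genes. By deposited TPM the ratio of *Cdh1* to *Cdh2* was higher by 0.71 and the separation was lost (exact permutation p = 0.2, n = 3 each).

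Per transcript length, the order of the control levels was *Vim* at 644 ± 66.7 TPM, *Cdh1* at 204 ± 12.5, *Snai1* at 34.85 ± 19.4, *Twist2* at 27.2 ± 10.3, *Zeb2* at 15.4 ± 8.80, *Snai2* at 10.6 ± 1.45, *Zeb1* at 9.89 ± 2.04, *Twist1* at 6.88 ± 1.16, *Cdh3* at 2.73 ± 1.77 and *Cdh2* at 2.60 ± 0.76 TPM (SD, n = 3). The lowest control value of a gene exceeded the highest of the next for 3 of the 9 pairs of neighbours in this order, *Vim* over *Cdh1*, *Cdh1* over *Snai1* and *Twist1* over *Cdh3*. Between the other neighbours the ranges over the controls overlapped. Within each control uterus the first was nevertheless above the second for *Twist2* and *Zeb2*, *Zeb2* and *Snai2*, and *Zeb1* and *Twist1* also, which makes 6 of the 9 pairs. In *Gp130* ecKO, *Vim* was at 361 ± 124.5 TPM and *Cdh1* at 344 ± 79.8 TPM. The transcript length RSEM assigned to *Zeb2* varied between 3701 in control 3 and 6083 in *Gp130* ecKO 2, so that its TPM depends on that estimate, whereas the lengths of *Snai1*, *Snai2*, *Twist1* and *Cdh3* were the same in all uteri.

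Summed levels of cell type markers also separated the groups for stroma and for luminal and general epithelium, and not for glandular epithelium, whose 5 markers summed to 108 to 1063 CPM in the controls and 154 to 8684 CPM in the *Gp130* ecKO uteri. The 8 stroma markers had a summed level of 3284 to 4299 CPM across the controls against 1946 to 2585 CPM in the *Gp130* ecKO uteri. The quasi-likelihood test called 0 of these 8, and all 8 had a lower mean. An unadjusted p below 0.05 was found for 5, beside 25.0% of all tested genes. DESeq2 placed 2 and the exact test 1 past an FDR of 0.05, beside 13.3% and 8.90% of all tested genes. Examples are *Hoxa10*, a homeobox gene of uterine stroma, with a log2 fold change of −0.83, and *Hand2*, a stromal target of progesterone, with −1.09. The 6 endothelium markers summed to 377 to 951 CPM in the controls and 210.3 to 379.8 CPM in the *Gp130* ecKO uteri, with 5 of 6 below an unadjusted p of 0.05 and a median of −1.23. The 8 markers of luminal and general epithelium summed to 1816 to 3465 CPM across the controls against 5136 to 7399 CPM in the *Gp130* ecKO uteri. In sign 7 were higher and 1 lower. An unadjusted p below 0.05 was found for 3, or 37.5%, beside the 25.0% of all tested genes. Smooth muscle markers ranged from 568 to 2781 CPM across the controls against from 475 to 2994 CPM in the *Gp130* ecKO uteri, and leukocyte markers from 276 to 369 and from 181 to 519 CPM. *Lyz2* made up most of the leukocyte sum in each uterus. In sign 2 of the 8 leukocyte markers were higher and 6 lower, with a median log2 fold change of −0.46. The 4 mesothelium markers summed to 167 to 250.2 CPM in the controls and 67.1 to 117.0 CPM in the *Gp130* ecKO uteri. Of these 4 only *Wt1*, which uterine stroma also expresses, had groups without overlap, and the other 3 overlapped. The 3 oviduct markers summed to 51.3 to 88.0 CPM in the controls and 559 to 1195 CPM in the *Gp130* ecKO uteri. *Ovgp1* made up nearly all of this sum, at 615, 1193 and 552 CPM in *Gp130* ecKO uteri 1, 2 and 3. The groups overlapped for *Foxj1* and *Cfap126*. None of the marker lists of stroma, endothelium, epithelium or muscle had a marker at 0 in any uterus.

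The transcription factors, *Cdh2* and *Vim* were therefore also expressed relative to the stroma markers, as log2 CPM minus the mean log2 CPM of the 8 markers in the same uterus. *Twist1* stayed lower in every *Gp130* ecKO uterus on this scale, at −4.68, −5.42 and −4.95 in the controls and −5.96, −5.86 and −5.64 in *Gp130* ecKO. *Snai2* did too, at −4.07, −4.25 and −4.01 against −4.69, −4.99 and −4.42. The group differences were −0.80 for *Twist1* and −0.59 for *Snai2* (exact permutation p = 0.1 for each, n = 3 each). *Snai1* differed by −0.76, with control 2 at −3.61 below *Gp130* ecKO 1 and 2 at −3.47 and −3.02, so that its groups overlapped (exact permutation p = 0.4, n = 3 each). Leaving out 1 uterus took this difference from −1.12, without control 2, to −0.39 without control 3 and −0.37 without *Gp130* ecKO 3. *Twist2*, *Zeb2* and *Vim* differed by −0.30, −0.24 and −0.25 and *Zeb1* by −0.03, all with overlap and with exact permutation p between 0.4 and 0.9. By deposited TPM *Zeb2* differed by −0.55 without overlap (exact permutation p = 0.1, n = 3 each). *Twist2* came to −0.09 without control 3, and *Vim* to −0.077 without control 1 and −0.081 without *Gp130* ecKO 1. *Cdh2* was higher by 0.68 relative to the stroma markers, without overlap between the groups (exact permutation p = 0.1, n = 3 each). Its own log2 fold change was −0.11 with overlapping groups, while the mean log2 CPM of the stroma markers changed by −0.80. The part of the endothelium, mesothelium and oviduct markers in the levels of the members was not tested.

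**Figure D3:**
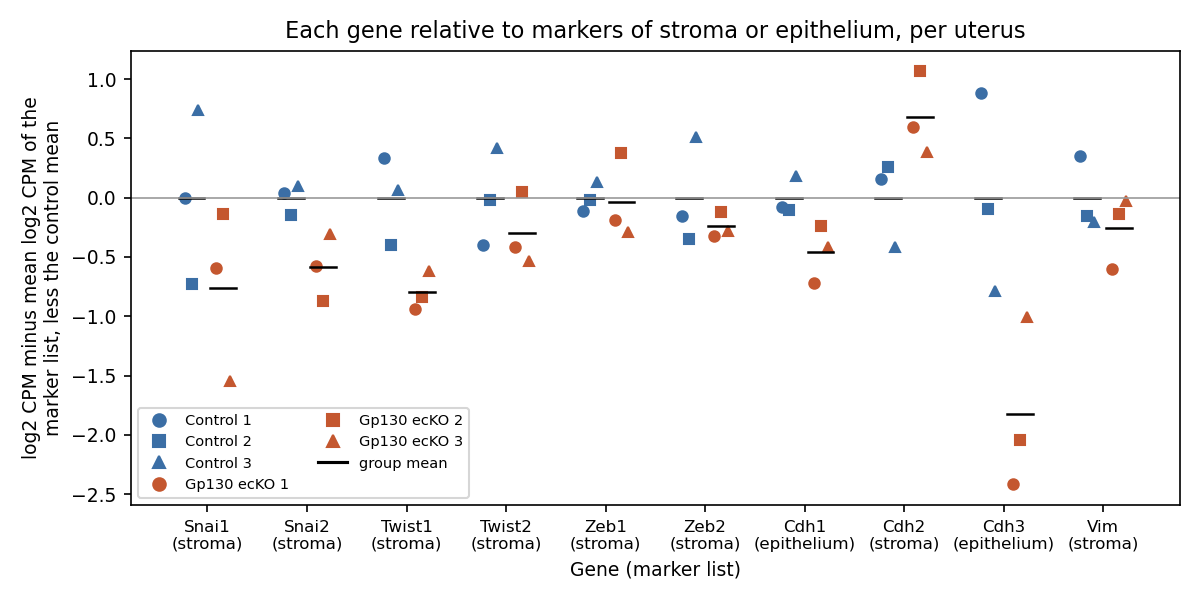
Log2 CPM of each gene minus the mean log2 CPM of the stroma or epithelium markers named under it, per uterus, with the control mean of each gene set to 0 and black lines for group means. Snai2 and Twist1 lie below all controls and Cdh2 above them, while Snai1, Twist2, Zeb1, Zeb2 and Vim overlap with the controls relative to stroma, and Cdh1 and Cdh3 lie below the controls relative to epithelium.

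Relative to the mean of the 8 epithelium markers, *Cdh1* was lower and not higher in *Gp130* ecKO, at 1.53, 1.51 and 1.79 in the controls and 0.89, 1.36 and 1.19 in *Gp130* ecKO. The difference of −0.46 came without overlap (exact permutation p = 0.1, n = 3 each). Its direction depended on the marker, as a comparison with single markers showed, which was added after the values were seen. It was −2.06 relative to the calcium-binding protein gene *Calb1* alone, −1.85 relative to *Krt19*, −0.70 relative to *Krt8* and −0.12 relative to *Krt18*. It was 0.79 relative to *Epcam*, 0.53 relative to *Wnt7a* and 0.40 relative to the claudin gene *Cldn7*. The groups overlapped relative to *Krt18* and *Wnt7a* and not relative to the others named. *Epcam*, an adhesion protein of nearly all simple epithelia, was at 649.5, 379 and 348 CPM across the controls against 429, 363 and 414 CPM in the *Gp130* ecKO uteri, whereas *Krt8* was at 435, 649 and 347 against 1447, 1017 and 1101 CPM. *Cdh3* differed by −1.82 relative to the 8 markers, without overlap (exact permutation p = 0.1, n = 3 each). The mean log2 CPM of these markers was itself higher by 1.11 in *Gp130* ecKO, and the CPM of *Cdh3* alone overlapped between the groups. Whether the separation of *Cdh3* depends on the marker was not tested.

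Other genes of the network were described from lists, beside the shares given above for all tested genes. Among 12 other EMT transcription factors 10 were tested, and the quasi-likelihood test called 0. An unadjusted p below 0.05 was found for 4, all lower, DESeq2 placed 2 past an FDR of 0.05 and the exact test 1, and the list's median was −0.47. *Tcf4*, a basic helix-loop-helix partner of Twist proteins, was at 263, 195 and 241 CPM across the controls against 113, 149 and 82.45 CPM in the *Gp130* ecKO uteri, with no overlap and a log2 fold change of −1.02. The homeobox genes *Prrx1* and *Prrx2*, which mark mesenchyme, had −0.93 and −2.09 without overlap, and *Foxc2*, a forkhead factor, had −1.53 with overlapping groups.

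Regulators of epithelial identity, which oppose EMT, had a higher mean in 6 of 9 tested cases. Of the 10 genes on the list 9 were tested, 0 were called by the quasi-likelihood test, 3 had an unadjusted p below 0.05, all higher, and DESeq2 placed 3 and the exact test 2 past an FDR of 0.05. The median was 0.62. *Ehf*, an epithelial ETS factor, was at 135, 167 and 87.1 CPM across the controls against 376, 318.5 and 448 CPM in the *Gp130* ecKO uteri, and its log2 fold change was 1.55 (adjusted p = 0.0636 with edgeR's quasi-likelihood test and 3.56e-05 with DESeq2). *Grhl2*, a grainyhead factor that maintains *Cdh1* expression, had 0.94, and *Esrp1*, a splicing regulator of epithelia, had 0.79. Each of these 3 separated the groups completely.

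Genes whose proteins act with SNAI1 and ZEB proteins had no common direction. Of 12 corepressor genes, all tested and 0 called by the quasi-likelihood test, 2 were higher and 2 lower at an unadjusted p below 0.05, with a median of 0.04, and DESeq2 and the exact test each placed 1 past an FDR of 0.05. The lower ones were *Wtip*, an Ajuba family LIM protein gene, with −1.23 and *Ezh2*, the methyltransferase of Polycomb complex PRC2, with −1.09. The higher ones were the histone deacetylase gene *Hdac1* with 0.58 and the Ajuba relative *Limd1* with 0.41. Of 10 genes that control SNAI1 protein turnover, 0 were called, 1 had an unadjusted p below 0.05, and DESeq2 placed 1 and the exact test 0 past an FDR of 0.05. It was *Gsk3b*, a kinase that marks SNAI1 for degradation, at 85.0, 145 and 99.5 CPM across the controls against 185, 221 and 162 CPM in the *Gp130* ecKO uteri, with a log2 fold change of 0.78.

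The partners of cadherins at junctions were also mixed. Of 15 genes of catenins and nectins 14 were tested and 0 called, 2 were higher and 3 lower at an unadjusted p below 0.05, and DESeq2 placed 2 and the exact test 1 past an FDR of 0.05, with a median of 0.37. *Ctnnd1*, which encodes the p120 catenin that stabilizes cadherins at the membrane, had 0.73 and *Jup*, the plakoglobin gene, had 0.96. *Pkp4*, a p120 relative, had −0.89 and *Nectin3*, an immunoglobulin adhesion gene, had −0.95, and none of these 4 had overlapping groups. Of 18 other cadherin genes only 8 had enough reads to be tested, of which 0 were called, 2 were higher and 3 lower at an unadjusted p below 0.05, and DESeq2 and the exact test each placed 2 past an FDR of 0.05. *Cdh4*, the R-cadherin gene, stood apart at 0.69, 2.93 and 1.40 CPM across the controls against 17.95, 23.8 and 42.0 CPM in the *Gp130* ecKO uteri. Its log2 fold change of 4.04 (SE 0.58) had an adjusted p of 0.0548 with edgeR's quasi-likelihood test and 2.07e-10 with DESeq2. *Cdh5*, the cadherin of endothelium, had −0.94 and *Cdh24* −1.20, both with overlap, and *Cdh10* had −2.26 without overlap.

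Of 12 epithelial genes that are repressed in EMT, 0 were called by the quasi-likelihood test, 10 had a higher mean, 3 had an unadjusted p below 0.05, all higher, and DESeq2 and the exact test each placed 3 past an FDR of 0.05. The share of 25.0% with such a p equals that of all tested genes, and the median was 0.60. The 3 were *Krt19* with 2.19, *Krt8* with 1.32 and the desmosome gene *Dsp* with 1.00, each without overlap. This list shares 5 genes with the epithelium markers, and the mesenchymal list holds *Col1a1* and *Col3a1* of the stroma markers and *Acta2* of the muscle markers. All 14 mesenchymal genes that are induced in EMT were lower in mean, 0 were called, 6 had an unadjusted p below 0.05, and DESeq2 placed 4 and the exact test 3 past an FDR of 0.05, with a median of −0.69. *S100a4*, the fibroblast-specific protein gene, was at 37.7, 27.3 and 31.9 CPM across the controls against 8.91, 15.96 and 14.9 CPM in the *Gp130* ecKO uteri, with a log2 fold change of −1.28. *Itga5*, a subunit of the fibronectin receptor, had −0.98, the stromelysin gene *Mmp3* −1.74 and the matrix protein gene *Sparc* −0.89. Among 6 intermediate filament partners of vimentin, 0 were called, 2 had an unadjusted p below 0.05, both lower, and DESeq2 placed 2 and the exact test 1 past an FDR of 0.05. They were the nestin gene *Nes* with −1.28 and the peripherin gene *Prph*, at 7.12, 0.62 and 2.07 CPM across the controls against 0.23, 0.08 and 0.08 CPM in the *Gp130* ecKO uteri.

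**Figure D4:**
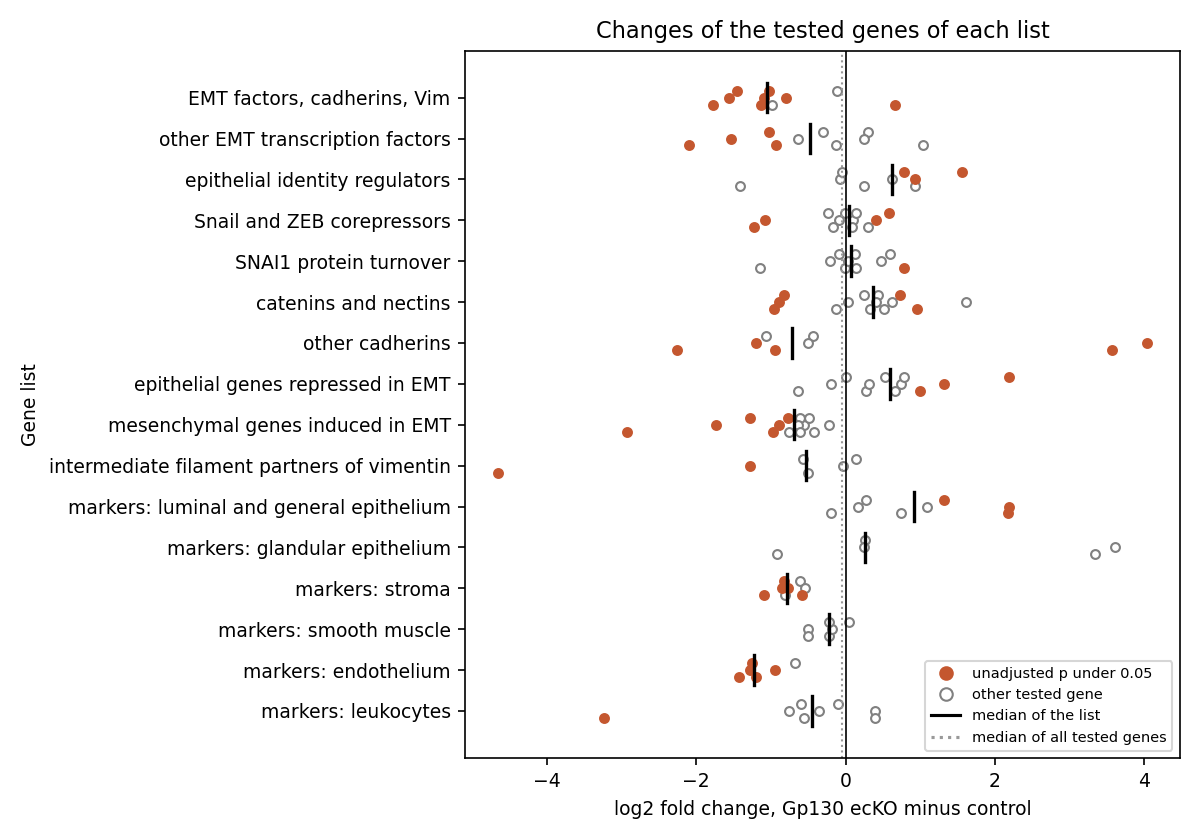
Log2 fold change of Gp130 ecKO over control for each tested gene of 16 lists, with filled points for an unadjusted p below 0.05 in edgeR's quasi-likelihood test, a black line for the median of each list and a dotted line for the median of all tested genes. The median of the 10 EMT factors, cadherins and Vim is at −1.06 and that of the mesenchymal genes at −0.69, whereas those of the epithelial regulators and the epithelial genes are at 0.62 and 0.60.

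Within the *Gp130* pathway, *Socs3*, a direct feedback target of STAT3, was at 47.45, 29.5 and 67.2 CPM across the controls against 5.11, 10.8 and 6.92 CPM in the *Gp130* ecKO uteri. Its log2 fold change was −2.65 (adjusted p = 0.0548 with edgeR's quasi-likelihood test and 5.56e-08 with DESeq2). The groups did not overlap. *Stat3* itself had −0.82, and *Lif*, the ligand, had 1.52, both without overlap. *Lifr*, the LIF receptor gene, had −0.45 with overlapping groups. Of the 5 genes of this list the quasi-likelihood test called 0, and 4 had an unadjusted p below 0.05, 1 higher and 3 lower. DESeq2 placed 1 higher and 2 lower past an FDR of 0.05, and the exact test 1 lower.

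Patterns across the 6 uteri were compared as the mean absolute difference of standardized log2 CPM among 13519 genes. The 5 genes most like *Snai1* were *Tcof1* at 0.06, *Rhof* at 0.07, *Tpr* at 0.07, *Stac2* at 0.09 and *Serpine2* at 0.09. *Serpine2* was at 111, 93.0 and 221 CPM across the controls against 54.2, 99.4 and 35.3 CPM in the *Gp130* ecKO uteri. Among the members, *Zeb2* at 0.35 and *Twist2* at 0.37 were the most like *Snai1* and *Snai2* stood at 0.60. The 5 genes most like *Cdh1* were *Fam20b* at 0.05, *Nipal3* at 0.06, *Crebrf* at 0.07, *Plxnb2* at 0.07 and *Slc38a7* at 0.07. *Plxnb2*, a plexin receptor gene, was at 221, 239 and 191 CPM across the controls against 429, 360.2 and 289.5 CPM in the *Gp130* ecKO uteri, the same order of uteri as for *Cdh1*.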

How the data were processed

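Uterus samples of 3 control and 3 *Gp130* ecKO libraries were compared, grouped by the labels. The authors made strand-specific poly(A) libraries with single reads of 75 bp, trimmed them with fastp 0.23.2, removed ribosomal RNA, mapped them to GRCm39 with STAR 2.7.10a and estimated counts with RSEM 1.3.3. The deposited tables hold the expected count, TPM and FPKM of each gene. The deposited expected counts are not normalized, and RSEM assigns reads that fit several genes by an estimate. The TPM and FPKM deposited by the authors are scaled for length and depth. TPM gave levels between genes, and FPKM was not used. The annotation and strand setting of the counting are not given in the sources used here.

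Rounded expected counts entered edgeR 4.0.16 under R 4.3.3 (filterByExpr, TMM, quasi-likelihood F test in its non-legacy form, Benjamini-Hochberg adjustment over 16605 genes). A gene was called at FDR under 0.05 and more than 2-fold change. DESeq2 1.42.0, the exact and likelihood ratio tests of edgeR, other scalings and filters, a replicate block and leaving out each uterus were alternatives. Single values and ratios of log2(CPM + 0.5) were compared with an exact permutation test (scipy 1.17.1). GENCODE M39 (GRCm39) gave symbols and coordinates, with 56017 of 56748 identifiers found there. Promoters came from RefSeq on GRCm38.p6, whose coordinates are not interchangeable with those of GRCm39. The fits of edgeR and DESeq2 were tested on simulated counts with known changes.

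The 19 gene lists, of which the members are 1, were chosen with earlier results of these data known. From each list at most 4 genes were named, by unadjusted p under 0.05 and a mean CPM of at least 1, and other genes named from lists were chosen after their values were seen or for their use as markers. The 5 genes most like *Snai1* and *Cdh1* and the genes that overlap a member were named by rule. Total counts of 13960748 to 25906443 per uterus set the precision, which is lowest in control 3. The comparison of *Cdh1* with 1 of the 8 epithelium markers alone is not reported here.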

Additional observations from a re-analysis of the deposited data

How the results depend on the processing

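The 10 genes kept their direction under all 17 alternatives each, except *Cdh2*, which turned to 0.15 without control 2, 0.042 without *Gp130* ecKO 1 and 0.080 without *Gp130* ecKO 3, within a range of −0.48 to 0.15 with a uterus left out. Over all genes, 26 were called, against 1239 with edgeR's exact test, 1317 with its likelihood ratio test, 1542 with DESeq2, 7 with the legacy quasi-likelihood form, 105 with no filter on low counts, 855 at FDR under 0.10 and, with a uterus left out, 892 without control 2 and 1 to 6 without any other. Of the members 0 were called, against 5 with the exact test, 6 with the likelihood ratio test, 6 with DESeq2, 3 at FDR under 0.10 and 0 to 2 with a uterus left out. The log2 fold changes past the threshold with the exact test, the likelihood ratio test and DESeq2 were −1.56, −1.56 and −1.55 for *Snai1*, −1.46, −1.46 and −1.44 for *Snai2*, −1.78, −1.78 and −1.77 for *Twist1*, −1.09, −1.09 and −1.07 for *Zeb2* and −1.02, −1.02 and −1.01 for *Vim*. For *Twist2* they were −1.14 with the likelihood ratio test and −1.12 with DESeq2, and for *Cdh1* 0.68 with DESeq2. With a uterus left out *Snai2* ranged from −1.59 to −1.36 and *Twist1* from −1.88 to −1.61, past the threshold only without control 2, at −1.43 and −1.88. The causes of these differences were not tested.

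Relative to stroma markers, *Zeb1* turned to 0.032 without control 3, 0.043 without *Gp130* ecKO 1, 0.095 without *Gp130* ecKO 3 and 0.065 by TPM (leaving out a uterus gave −0.24 to 0.095), and *Zeb2* to 0.013 without control 3 (−0.42 to 0.013). The log2 ratio of *Snai1* to *Snai2* turned to 0.15 without control 3 and 0.36 without *Gp130* ecKO 3 (−0.625 to 0.36). Relative to *Epcam*, *Wnt7a* or *Cldn7* alone, a choice made after seeing the data, *Cdh1* turned to 0.79, 0.53 and 0.40. Upper quartile scaling moved the median of all genes to −0.11. With the replicate number as a block 6 genes were called and no member. The numbers were not taken to pair the uteri, because the deviations of same-numbered uteri correlated at 0.10, 0.06 and −0.19.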

Other observations

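*Ovgp1*, the oviductin gene of secretory cells of the oviduct, was at 47.9, 85.3 and 50.6 CPM in controls 1, 2 and 3 and at 615, 1193 and 552 CPM in *Gp130* ecKO uteri 1, 2 and 3. It was the only gene of the 19 lists called by edgeR's quasi-likelihood test, with a log2 fold change of 3.68 (adjusted p = 0.0377). Of the other oviduct markers, *Foxj1*, a factor of ciliated cells, was at 0.20 to 0.54 CPM across the controls against 0.42 to 3.32 CPM in the *Gp130* ecKO uteri, with overlapping groups and a log2 fold change of 2.11 (unadjusted p = 0.0295 and adjusted p = 0.160, edgeR quasi-likelihood test). *Cfap126* was at 1.87 to 2.91 and 1.69 to 2.99 CPM, with a log2 fold change of −0.07. The glandular protease gene *Prss29* was at 523, 1.70 and 23.7 CPM across the controls against 6546, 84.9 and 48.9 CPM in the *Gp130* ecKO uteri, with overlapping groups. *Wt1*, a mesothelium marker that uterine stroma also expresses, had a log2 fold change of −1.36 and groups that did not overlap.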
